A study of Mus musculus with 16 samples.

Results

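MiR-143 and miR-145 were followed as mmu-miR-143 and mmu-miR-145, the 2 rows of the scanner files that carry these names, out of 611 mouse miRNAs on the array. They were chosen by name, and both passed the filter on dim miRNAs. Total RNA came from primary mouse embryonic fibroblasts (MEFs) of mixed FVB/n C57Bl/6 background, either wild type (WT) or lacking Ercc1 (Ercc1-/-), harvested at passage 3 (P3) or passage 7 (P7) after growth in 3% or 20% O2. Each of the 8 combinations was hybridized to 2 one-colour Agilent mouse miRNA arrays, 16 in all, and the methods of the study describe 2 independent cell lines per genotype. Ercc1 is a subunit of an endonuclease that acts in nucleotide excision repair and in the repair of DNA crosslinks, and the arrays addressed how its loss, passage and oxygen relate to miRNA levels. The deletion itself cannot be checked here, because Ercc1 is no miRNA.

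The genes of miR-143 and miR-145 lie side by side and are transcribed together. Both miRNAs are abundant in smooth muscle, where serum response factor and its coactivator myocardin drive the cluster, and where loss of the cluster impairs the contractile phenotype. MiR-145 represses Klf4 and Klf5, and miR-143 represses Elk1, all of them factors tied to the proliferating, less contractile state. In fibroblasts the cluster rises with TGF-beta signalling and is counted among the miRNAs of the myofibroblast, a contractile fibroblast that makes matrix. A culture holds several cell states, so that fewer cells of a type and less RNA per cell cannot be told apart on these arrays.

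The replicate number marked the slide: all 8 groups lay on each of 2 slides, replicate 1 on slide 1 and replicate 2 on slide 2, and each slide was scanned once. On both slides the P3 arrays were in the first row and the P7 arrays in the second, so that passage and position on the slide cannot be told apart. Slide 1 was brighter, with a mean of the array levels of 9.17 (log2, unscaled, over the 57 miRNAs that no array lost to background) against 7.55 on slide 2. An array had 117 to 257 mouse miRNAs above background. The replicates of a P3 group correlated between 0.930 and 0.975 (Pearson r across the 235 tested miRNAs), those of a P7 group between 0.488 and 0.920, and the dimmest array, Ercc1-/- P7 20% O2 replicate 2, had the lowest value. Where not said otherwise, levels are log2 signals after every array was scaled to an equal mean over the same 57 miRNAs, which include neither miR-143 nor miR-145, and a change is a difference of such values.

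In early passage MEFs miR-143 lay between 7.28 and 8.09 across genotypes and oxygen tensions, with every slide 1 array above every slide 2 array. At P3 it measured 8.09 and 7.28 in WT cells in 20% O2 (replicates 1 and 2), 7.77 and 7.40 in WT cells in 3% O2, 7.93 and 7.43 in Ercc1-/- cells in 20% O2, and 7.79 and 7.33 in Ercc1-/- cells in 3% O2. At P7 the replicates parted further. The values of replicate 1 were 8.35 in WT cells in 20% O2, 7.49 in WT cells in 3% O2, 8.20 in Ercc1-/- cells in 20% O2 and 7.97 in Ercc1-/- cells in 3% O2, whereas those of replicate 2 were 5.09, 5.59, 2.09 and 4.96 in the same order. All 4 P7 arrays of slide 2 thus lay below every other array, and the 4 of slide 1 lay among or above the P3 values. MiR-143 was above background on 15 of 16 arrays, and the exception was the lowest value, Ercc1-/- P7 20% O2 replicate 2.

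MiR-145 behaved otherwise. At P3 it measured 5.09 and 3.69 in WT cells in 20% O2 (replicates 1 and 2), 4.69 and 3.37 in WT cells in 3% O2, 4.64 and 3.74 in Ercc1-/- cells in 20% O2, and 4.36 and 3.33 in Ercc1-/- cells in 3% O2. At P7 the values were 4.97 and 5.07 in WT cells in 20% O2, 5.31 and 4.95 in WT cells in 3% O2, 5.22 and 5.76 in Ercc1-/- cells in 20% O2, and 6.13 and 5.09 in Ercc1-/- cells in 3% O2. On slide 2 the passages did not overlap, with 3.33 to 3.74 at P3 and 4.95 to 5.76 at P7, and on slide 1 only WT P3 20% O2, at 5.09, reached the P7 range of 4.97 to 6.13. MiR-145 was also above background on 15 of 16 arrays, all but WT P3 20% O2 replicate 2. The opposite strand of its hairpin, listed as mmu-miR-145*, was above background on 0 of 16 arrays.

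**Figure D1:**
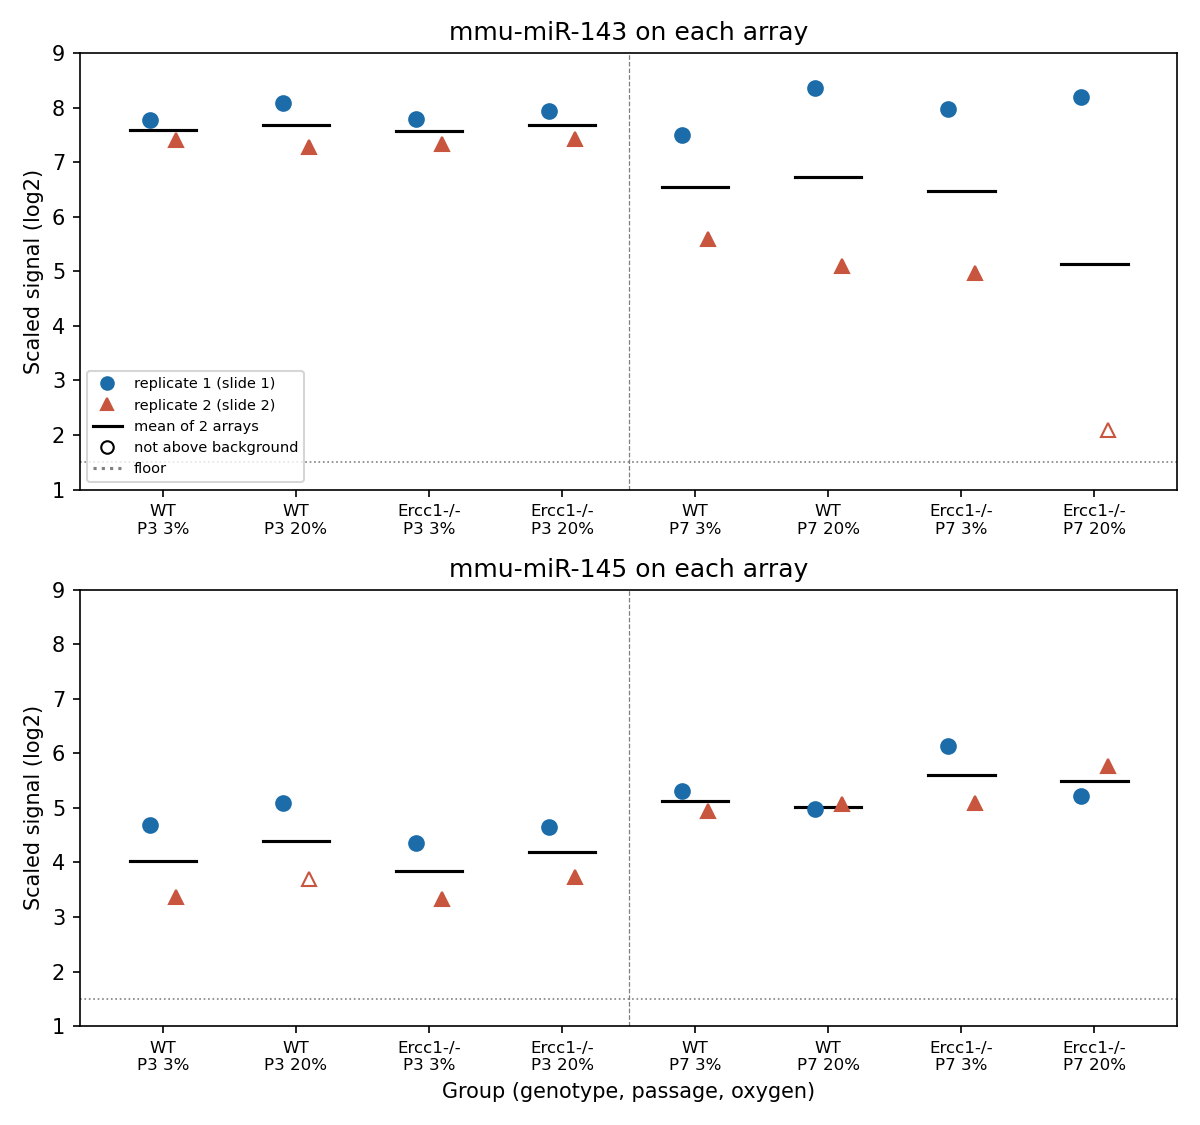
Scaled log2 signal (y axis) of miR-143 (upper panel) and miR-145 (lower panel) on each array, by genotype, passage and oxygen (x axis), with circles for slide 1, triangles for slide 2, bars for the mean of 2 arrays, open symbols for values not above background and a dotted line for the floor. The 4 P7 triangles of miR-143 lie between 2.09 and 5.59, under every other array, while those of miR-145 lie between 4.95 and 5.76, above every P3 triangle.

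The order of the group means separated the passages for both miRNAs, in opposite directions. For miR-143 the 4 highest means were those of the P3 groups, from 7.68 ± 0.57 (SD, n = 2) in WT cells in 20% O2 to 7.56 ± 0.33 (SD, n = 2) in Ercc1-/- cells in 3% O2, and the lowest was 5.14 ± 4.32 (SD, n = 2) in P7 Ercc1-/- MEFs in 20% O2. For miR-145 the 4 highest were those of the P7 groups, from 5.61 ± 0.73 (SD, n = 2) in Ercc1-/- cells in 3% O2 to 5.02 ± 0.07 (SD, n = 2) in WT cells in 20% O2, and the lowest was 3.85 ± 0.73 (SD, n = 2) in P3 Ercc1-/- MEFs in 3% O2. No neighbours in either order differed by more than the standard error that the fit gave the difference of 2 groups, 1.69 for miR-143 and 0.71 for miR-145. The fit assumes 1 spread for all groups, which miR-143 did not show. Its SD within a group was 0.26 to 0.57 at P3 and 1.35 to 4.32 at P7. The pooled standard error thus does not describe the P3 groups of miR-143, yet it enters their genotype and oxygen comparisons too.

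Averaged over genotype and oxygen, miR-145 was higher at P7 than at P3. It averaged 4.12 ± 0.67 (SD over 8 arrays) in early passage and 5.31 ± 0.42 (SD over 8 arrays) in late passage cells, a difference of 1.20 (SE 0.35, 95% interval 0.42 to 1.97, adjusted p = 0.0159 in limma). The change was 0.71 on slide 1 and 1.68 on slide 2, and with the slide as a block its adjusted p was 0.00503. It was between 1.02 and 1.37 without each array in turn, and past the threshold each time. The call was lost with the total signal of the software (0.74), with no scaling (0.28), when the mean of all miRNAs was the scale (0.79), with normexp background correction (0.70) and with no filter on dim miRNAs (1.20, adjusted p = 0.0521). The total signal of miR-145 disagreed with its own probe totals on 3 arrays of slide 2, as described at the end. In the averaged passage comparison 54.9% of the tested miRNAs were called, so that a call for miR-145 there was no rarity, and 22.6% were called in the higher direction. Limma took the arrays of a passage as independent, with and without the block. Differences between replicates were shared between groups of one passage (median Pearson r of 0.61 for P3 and 0.81 for P7). Between passages they were not (0.03), so that the p-values of a passage change may be too small.

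MiR-143 did not pass the same test. It averaged 7.63 ± 0.30 (SD over 8 arrays) in early passage and 6.22 ± 2.19 (SD over 8 arrays) in late passage cells, a difference of -1.41 (SE 0.85, 95% interval -3.26 to 0.44, adjusted p = 0.166 in limma). The slides differed in size and sign, with 0.11 on slide 1 and -2.93 on slide 2, and with the slide as a block the adjusted p was 0.0578. The result depended on the pair of P7 Ercc1-/- arrays in 20% O2: without replicate 1 of that group the change was -2.17 (adjusted p = 0.00878), and without replicate 2 it was -0.65 (adjusted p = 0.393). With normexp background correction it was -0.30.

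Set among the other miRNAs, the split of miR-143 between slides was large and that of miR-145 was not. Across the 235 tested miRNAs the passage changes on the slides ran together (Pearson r = 0.833 across miRNAs, which are not independent), with 81 higher and 117 lower at P7 on both slides. The change on slide 2 minus that on slide 1 was -3.04 for miR-143, the sixth lowest (rank 6 of 235), and 0.97 for miR-145, rank 175. Which of the cell line, the labelling and the slide went with the low P7 values of miR-143 on slide 2 cannot be told apart.

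**Figure D2:**
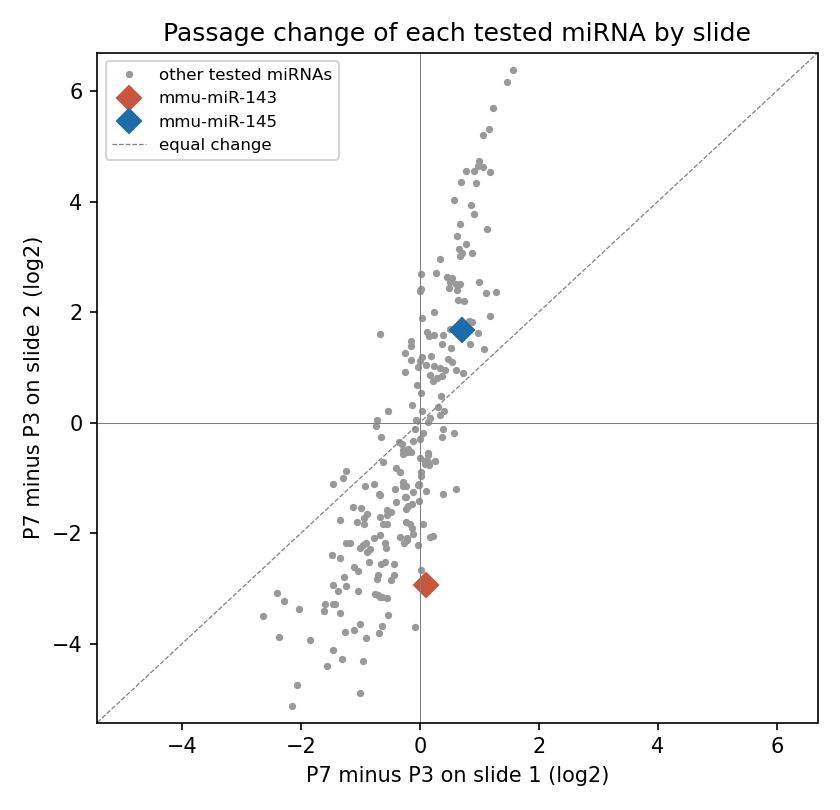
Change from P3 to P7 (log2, mean of 4 P7 arrays minus mean of 4 P3 arrays) on slide 1 (x axis) and slide 2 (y axis) for each of 235 tested miRNAs, with miR-143 and miR-145 as diamonds and a dashed line for equal change. MiR-143 sits at 0.11 and -2.93, at the edge of the points, and miR-145 at 0.71 and 1.68, inside them.

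The size of both changes moved with the scaling. The level of the arrays over the 57 miRNAs was lower at P7, with a mean of 7.90 (log2, unscaled) against 8.82 at P3. The median change of all tested miRNAs at P7 was -0.39 as scaled here, -1.14 without any scaling, -0.76 when the mean of all mouse miRNAs was the scale (as the methods of the study describe), -0.11 with the 75th percentile and -0.22 with quantile normalization. MiR-145 changed by 0.28 with no scaling (adjusted p = 0.770) and by 0.79 with the mean of all miRNAs (adjusted p = 0.243), so that its call was lost under both, and by 1.53 and 1.31 with the other scalings, where the call held. Relative to the median miRNA it was higher by between 1.42 (no scaling) and 1.64 (75th percentile) under the 5 scalings. MiR-143 relative to the median miRNA was between -1.13 (quantile normalization) and -0.91 (no scaling), and it was called under none of the 5. Apart from quantile normalization, these scalings multiply an array by a single number or by none. Both miRNAs and the median then move alike, save for values at the floor, so that these distances were nearly fixed in advance. Other signal measures moved the median too. With normexp background correction the median change was 0.35, with miR-145 at 0.70 and miR-143 at -0.30, so that miR-145 lay nearer the median there. That setting also added an offset of 50 to every spot signal before scaling, which narrows differences between dim signals. The part of the offset in these values was not tested. With the total signal of the software the median was -0.42 and miR-145 changed by 0.74.

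**Figure D3:**
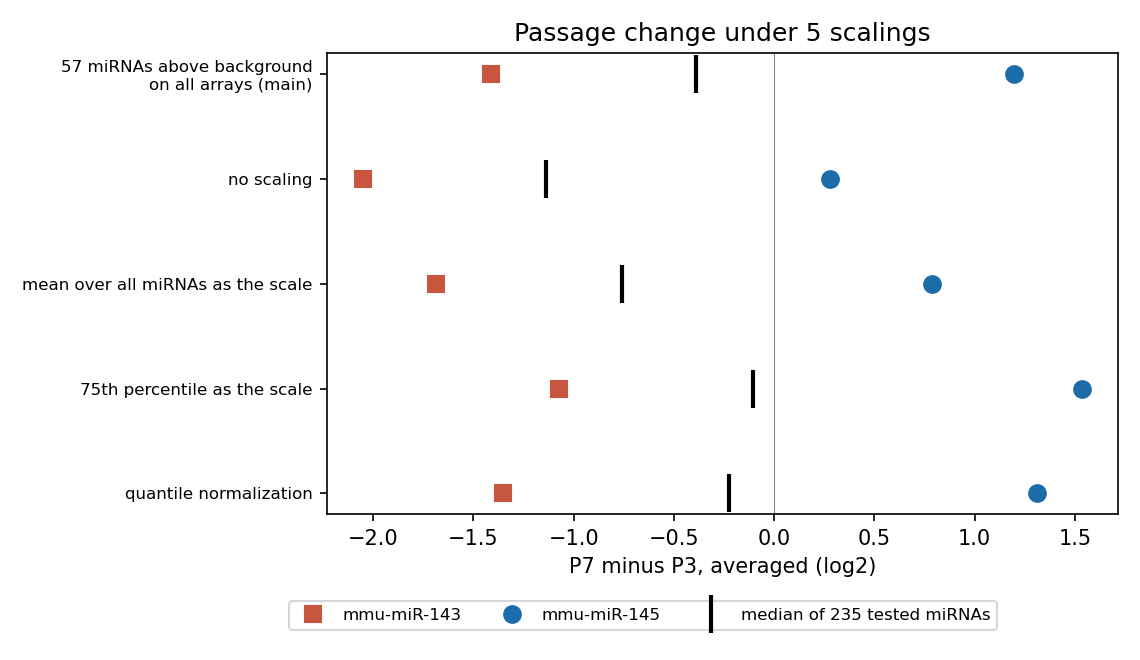
Change from P3 to P7 averaged over genotype and oxygen (log2, x axis) under 5 scalings (y axis), for miR-143 (squares), miR-145 (circles) and the median of 235 tested miRNAs (vertical marks). MiR-145 lies 1.42 to 1.64 above the median miRNA. All scalings but quantile normalization move the 3 alike by construction, apart from values at the floor.

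The unscaled signals of the pair differed in how far they followed the level of the array. On slide 1 the unscaled processed signal of miR-145 lay between 49.8 and 67.0 on all 8 arrays, a 1.35-fold range, whereas the level of those arrays over the 57 miRNAs spanned 3.64-fold. On slide 2 it lay between 4.94 and 14.8 at P3 and between 9.21 and 23.7 at P7, on arrays whose level spanned 7.20-fold. MiR-143 moved far more: on slide 1 between 183 and 649, and on slide 2 between 59.5 and 206 at P3 and between 0.721 and 37.0 at P7. The unscaled miR-145 signal was thus nearly flat on slide 1 and overlapped between passages on slide 2.

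Passage was also compared within each genotype and oxygen tension, where every test rested on 2 arrays against 2. MiR-145 was not called in any of these 4 comparisons. Its largest change was in Ercc1-/- cells in 3% O2, at 1.76 (SE 0.71, adjusted p = 0.122 in limma), with 1.77 on slide 1 and 1.76 on slide 2 and an adjusted p of 0.0519 with the slide as a block, where 18.3% of tested miRNAs were called. In Ercc1-/- cells in 20% O2 it was 1.30 (adjusted p = 0.191), in WT cells in 3% O2 1.09 (adjusted p = 0.647) and in WT cells in 20% O2 0.63 (adjusted p = 0.613). The last fell to -0.07 without WT P3 20% O2 replicate 2, the array where miR-145 was not above background.

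MiR-143 was likewise not called in the 4 comparisons of passage. Its change was -2.54 (SE 1.69, adjusted p = 0.252) in Ercc1-/- cells in 20% O2, -1.10 (adjusted p = 0.645) in Ercc1-/- cells in 3% O2, -1.04 (adjusted p = 0.760) in WT cells in 3% O2 and -0.96 (adjusted p = 0.722) in WT cells in 20% O2. In each of them the change on slide 2 was negative, from -1.81 to -5.34, and that on slide 1 lay between -0.27 and 0.26. Without the block, 1.28% of tested miRNAs were called in 20% O2 in either genotype, and 0% in 3% O2 in either. By the methods' t-test, 0 of the 26 tests of the pair in comparisons of single groups reached an unadjusted p under 0.05, and the smallest was 0.138.

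Loss of Ercc1 was not accompanied by a called change of either miRNA. Averaged over passage and oxygen, Ercc1-/- minus WT was -0.42 for miR-143 (SE 0.85, 95% interval -2.27 to 1.43, adjusted p = 0.966) and 0.14 for miR-145 (SE 0.35, 95% interval -0.63 to 0.91, adjusted p = 0.970), in a comparison that called 1.7% of tested miRNAs. The intervals leave room for changes of over 2-fold in miR-143. Within the 4 combinations of passage and oxygen the largest difference for miR-143 was -1.58 at P7 in 20% O2 (adjusted p = 0.780), made of -0.16 on slide 1 and -3.01 on slide 2. For miR-145 it was 0.48 at P7 in 3% O2 (adjusted p = 0.988). These comparisons called 0% of miRNAs in 3% O2 at either passage, 0.851% at P3 in 20% O2 and 0.426% at P7 in 20% O2.

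Oxygen tension gave no called change either. Averaged over genotype and passage, 20% minus 3% O2 was -0.23 for miR-143 (SE 0.85, 95% interval -2.08 to 1.62, adjusted p = 1.00) and 0.12 for miR-145 (SE 0.35, 95% interval -0.65 to 0.89, adjusted p = 1.00), where 0.851% of tested miRNAs were called. In the single combinations the values ran from -1.33 to 0.18 for miR-143 and from -0.12 to 0.36 for miR-145, and the background was 0% in all 4. Between the extremes of the design, P7 Ercc1-/- MEFs in 20% O2 and P3 WT MEFs in 3% O2, miR-143 differed by -2.44 (SE 1.69, adjusted p = 0.280) and miR-145 by 1.46 (SE 0.71, adjusted p = 0.182), neither of them called, against a background of 2.55%.

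The passage change did not differ detectably between genotypes. The change in Ercc1-/- cells minus that in WT cells was -0.82 for miR-143 (SE 1.69, adjusted p = 0.857) and 0.67 for miR-145 (SE 0.71, adjusted p = 0.769). The oxygen change differed between genotypes by -0.75 for miR-143 and -0.01 for miR-145, and between passages by -0.68 and -0.46. All adjusted p were 0.769 or above in limma, and 0% of tested miRNAs were called in any of these 3 comparisons.

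The ratio of the pair within an array does not depend on the scale of that array, apart from values at the floor. The log2 ratio of miR-143 to miR-145 compares signals of different probes, so that only its differences between arrays carry meaning. At P3 it was 3.00, 3.07, 3.29 and 3.43 on slide 1 (WT in 20% and 3% O2, then Ercc1-/- in 20% and 3% O2) and 3.59, 4.03, 3.69 and 4.0 on slide 2. At P7 it was 3.38, 2.18, 2.98 and 1.84 on slide 1 and 0.02, 0.64, -3.67 and -0.13 on slide 2, in the same order. The lowest value belongs to the array where miR-143 was not above background, and the 3.59 of WT cells in 20% O2 to the one where miR-145 was not.

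The ratio was lower at P7, with a mean of 0.91 ± 2.26 (SD, n = 8) against 3.51 ± 0.39 (SD, n = 8) at P3. The difference of -2.61 gave p = 0.00463 in an exact two-sided permutation test within the combinations of genotype and oxygen, and 0.0139 after adjustment over 3 factors. The ratio fell in 7 of 8 pairs of arrays on the same slide, WT cells in 20% O2 on slide 1 being the exception, and the mean change was -0.60 on slide 1 and -4.61 on slide 2. Flipping the signs of the within-slide differences (exact, all arrangements) gave p = 0.0234, which was 0.0703 after the same adjustment, so that the call was lost with the slide as a block. Neither test allows for the replicate differences that groups of one passage shared. Without the array where miR-143 was not above background the difference was -1.77 (adjusted p = 0.0185 in the exact permutation test). The call was lost without WT P3 20% O2 replicate 2, where miR-145 was not above background (adjusted p = 0.0509, exact permutation test), and without replicate 1 or replicate 2 of Ercc1-/- P3 20% O2 (adjusted p of 0.111 and 0.130, exact permutation test). With the total signal of the software it was -2.07 and with normexp -0.99, neither of them called.

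Genotype and oxygen did not separate the ratio. Ercc1-/- minus WT was -0.56 (adjusted p = 0.735, exact permutation test), and 20% minus 3% O2 was -0.35 (adjusted p = 0.735, exact permutation test). At P7 on slide 1, both values in 3% O2 (2.18 and 1.84) were under both in 20% O2 (3.38 and 2.98), an order that slide 2 did not repeat.

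**Figure D4:**
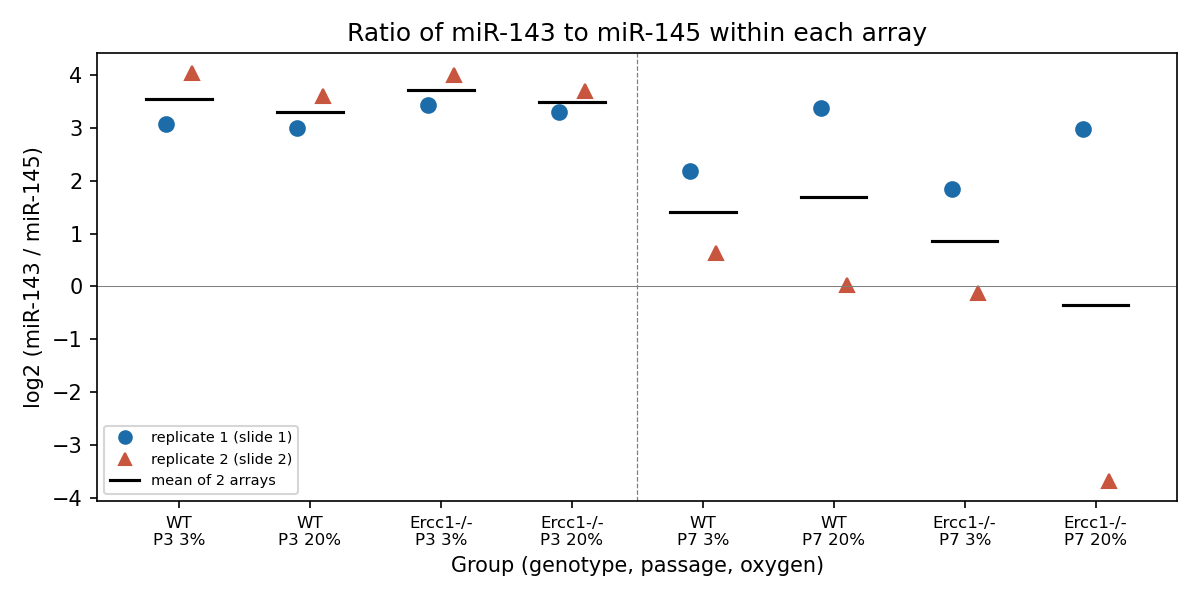
Log2 ratio of miR-143 to miR-145 within each array (y axis) by genotype, passage and oxygen (x axis), with circles for slide 1, triangles for slide 2 and bars for the mean of 2 arrays. The P3 values lie between 3.00 and 4.03, the P7 values of slide 1 between 1.84 and 3.38 and those of slide 2 between -3.67 and 0.64.

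The relation between the levels of miR-143 and miR-145 differed between sets of arrays. Slide 1 was the set that did not fall into separate clusters, which was seen only with the values in hand. Over its 8 arrays Pearson's r was 0.10 (exact permutation p = 0.815) and Spearman's rho 0.14 (exact permutation p = 0.752), with adjusted p of 0.827 and 0.793 over the 4 sets of arrays examined. Without the 2 arrays farthest from the median of miR-143, r was 0.49, and with no scaling it was also 0.49. In the other 3 sets Pearson's r was 0.951 over the 8 P3 arrays (adjusted exact permutation p = 0.00461), -0.937 over the 8 arrays of slide 2 (adjusted exact permutation p = 0.00238) and -0.087 over the 8 P7 arrays (adjusted exact permutation p = 0.827). With no scaling these were 0.978, 0.021 and 0.989. The P3 and P7 arrays divided by slide, and those of slide 2 by passage, so that these 3 values describe the distance between 2 clusters of 4 arrays, and a relation within a cluster could not be tested. Over all 16 arrays the correlation of the pair was not tested, and its r is given below only to place each miRNA in an order of likeness.

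The miRNAs whose levels most resembled each of the pair were different. Among the 153 tested miRNAs above background on at least 12 arrays, those most like miR-143 over the 16 arrays were miR-27b (Pearson r = 0.993), miR-411 (0.973), miR-434-5p (0.970), miR-23b (0.968) and miR-19a (0.966). Those most like miR-145 were miR-1198 (0.861), miR-24-2* (0.854), miR-99b (0.833), miR-222 (0.808) and miR-202-3p (0.807). MiR-23b and miR-27b come from a common cluster, miR-411 and miR-434-5p from the imprinted Dlk1-Dio3 domain, and miR-19a from the miR-17-92 cluster. In the order of likeness miR-145 stood at place 95 for miR-143 (r = -0.29), and miR-143 at place 86 for miR-145. These are descriptions over arrays that share slides and passages: within slide 1 the 5 values for miR-143 fell to between 0.27 and 0.77, and those for miR-145 were 0.69 to 0.97.

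RefSeq (GRCm38.p6) lists 2 of these 10 miRNAs under the array's own name, and their mature sequences are shown 5′ to 3′ with the seed, bases 2 to 8, in capitals, because the seed sets which transcripts a miRNA pairs with. The first resembled miR-143 and the second miR-145, and their seeds differ.
mmu-miR-434-5p: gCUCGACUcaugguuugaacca
mmu-miR-202-3p: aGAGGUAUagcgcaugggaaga

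Both miRNAs belong to a list of 33 miRNAs described for the smooth muscle phenotype and fibroblast activation, of which 25 were tested. In the averaged passage comparison 2 were higher and 7 lower at P7, together 9 of 25 against the 54.9% called among all tested miRNAs, of which 32.3% were lower. The list's median change was -0.43, beside -0.39 over all tested miRNAs. With the slide as a block 13 of the 25 were called, where the share over all tested miRNAs was 68.1%. For genotype and for oxygen 0 of 25 were called, and with the block 1 was called for genotype, where 2.98% of all tested miRNAs were.

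The other higher member was miR-222, which is transcribed with miR-221 and promotes smooth muscle proliferation by repressing p27. MiR-222 averaged 4.18 ± 0.58 (SD over 8 arrays) in early passage and 6.01 ± 0.51 (SD over 8 arrays) in late passage cells, a difference of 1.82 (adjusted p = 0.00379), with 1.29 on slide 1 and 2.36 on slide 2; with no scaling it was 0.90 (adjusted p = 0.302). Its partner miR-221 changed by -0.86 (adjusted p = 0.123 in limma, and 0.0343 with the block), with -0.20 on slide 1 and -1.51 on slide 2, and by 0.04 with normexp background correction. Without each array in turn it lay between -1.21 and -0.50, and it was called only without Ercc1-/- P7 20% O2 replicate 1 (adjusted p = 0.00966).

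The lower members were miR-26b (-3.40, adjusted p = 0.00853), miR-199a-3p (-2.78, adjusted p = 0.00701), miR-204 (-2.76, adjusted p = 0.000782), let-7d (-2.39, adjusted p = 0.00639), miR-100 (-1.64, adjusted p = 0.00911), miR-125b-5p (-1.22, adjusted p = 0.0175) and miR-214 (-1.15, adjusted p = 0.0375). MiR-26b, miR-214, miR-125b-5p, miR-100 and miR-204 each lost the call under at least one alternative, and miR-214 did so when most single arrays were left out. The change of miR-214 was -0.21 on slide 1 and -2.09 on slide 2. MiR-21, which is raised in activated fibroblasts, changed by -1.06 (adjusted p = 0.0514 in limma, and 0.0374 with the block), with -0.11 on slide 1 and -2.01 on slide 2. Without each array in turn the change of miR-21 lay between -1.42 and -0.70. MiR-29a, which represses collagen genes, changed by 0.31 (adjusted p = 0.367), a sign that turned with no scaling (-0.61). Without each array in turn it lay between 0.087 and 0.52, and it was called only without Ercc1-/- P7 20% O2 replicate 2 (adjusted p = 0.0288). MiR-29b of the same family, named here after its value was seen, changed by -0.30 (adjusted p = 0.613). MiR-133a, a muscle miRNA, was above background on 0 arrays.

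Markers of other cell types were sparse. Fibroblast miRNAs were present, 9 of 9 above background on at least 1 array and 7 on all 16, with a summed scaled signal of 15050 to 24010 between group means. None of the 7 epithelial miRNAs (miR-200a, miR-200b, miR-200c, miR-141, miR-429, miR-203 and miR-205), the 2 endothelial forms of miR-126 or the liver miRNA miR-122 was above background on any array. Of 7 skeletal and cardiac muscle miRNAs only miR-206 was, on 2 arrays, with miR-1, miR-133a, miR-133b, miR-208a, miR-208b and miR-499 on none, and the group sums of that list lay between 2.82 and 7.00. Of 6 blood miRNAs 3 were above background on some array (not miR-150, miR-451 or miR-144), with group sums of 10.74 to 55.42, and of 6 neural miRNAs 2 were (not miR-124, miR-9, miR-137 or miR-138), with group sums of 5.65 to 14.0. A miRNA under the floor of 2.82 entered these sums as 2.82. The low ends of the muscle and neural sums are thus floor values alone.

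Of the 9 fibroblast miRNAs 1 was higher and 5 were lower at P7, beside the 54.9% called among all tested miRNAs (22.6% higher, 32.3% lower). Among the lower ones, miR-199a-3p, miR-214, miR-125b-5p and miR-100 are also lower members of the smooth muscle and fibroblast list, so that the counts overlap. The fibroblast miRNAs are described further here. The median change of the 9 was -1.15, beside -0.39 over all tested miRNAs, and their summed signal ranged from 19290 to 25510 on the P3 arrays and from 13870 to 25640 on the P7 arrays. The part of the fibroblast list in the passage values of miR-143 and miR-145 was not tested.

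Each miRNA was read by 2 probes of 10 spots, and the probes of a miRNA gave like changes. From P3 to P7 the probes of miR-143 changed by -1.48 and -1.29, and those of miR-145 by 1.27 and 1.16. The dimmer probe of miR-145 was above background on 10 of 16 arrays and its other probe on 15, and those of miR-143 on 14 and 15. None of their spots was saturated.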

How the data were processed

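The deposited intensity values were made by the authors with Agilent Feature Extraction, version 10.7.1.1 per the file headers (the methods name another version), which subtracts background and gives a processed signal per spot, unscaled. A series table, also deposited by the authors, gives one summed intensity for each miRNA. Neither the RNA extraction day nor the labelling batch is given in the sources used here, and cell lines are not tied to arrays by the labels.

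From the 13715 spots of an array, control and outlier spots were left out, and signals were averaged over the spots of a probe, then over probes. A probe was above background with a share of at least 0.5 of its spots marked so, a miRNA with any probe. The scale equalized the mean log2 signal of the 57 miRNAs that every array detected, values below a floor of 2.82 were raised to it, and log2 was taken. The 235 mouse miRNAs that both arrays of at least 1 group detected entered limma 3.58.1 (R 4.3.3), which fitted a mean for each group with 8 residual and 3.58 prior degrees of freedom. The p-values were adjusted by Benjamini-Hochberg separately for the 19 comparisons, and an adjusted p under 0.05 was a call. The moderated test replaces the unpaired test of the methods, which was run as an alternative on the same scaled values. With 2 arrays per group, p-values measure the spread between these arrays, and the number of arrays limits the precision. The tests of passage take the arrays of a passage as independent, although their replicate differences correlated between groups.

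Slide, scan and replicate number coincide. Differences between replicates correlated between groups of one passage (median Pearson r of 0.61 for P3 and 0.81 for P7) but not between passages (0.03), so the numbers were not taken as pairs. The slide was given as a block and by within-slide values because the headers identify the slide of each array. Permutation tests and correlations used Python 3.11.15 and scipy. The limma fit and the permutation test within combinations were tested on simulated data, with independent arrays and no slide effect. The correlation was planned over all arrays and was tested in 4 sets of 8, a choice made after seeing that the arrays cluster by slide and passage. Named miRNAs were the pair in every comparison, the 5 most like each, the members of the smooth muscle and fibroblast list called in an averaged comparison, miR-21, miR-221, miR-222, miR-29a and miR-133a, and the markers not above background. The members and lists were chosen with earlier results of these data known. Alternatives changed the scaling, background correction, probe summary, floor, filter, block, samples and test. The normexp background correction was run with an offset of 50.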

Additional observations from a re-analysis of the deposited data

How the results depend on the processing

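The change of miR-145 with passage stayed positive under every alternative run, between 0.28 and 1.53, but it was not past the threshold without scaling (0.28), when the mean of all miRNAs was the scale (0.79), with the total signal of the software (0.74), with normexp on the median and local background signals (0.70) and with no filter on dim miRNAs (1.20, adjusted p = 0.0521, where more miRNAs enter the adjustment). The averaged change of miR-143 with passage lay between -2.05 (no scaling) and -0.30 (normexp) under the alternatives that kept all arrays, none of which called it, although it was 0.11 within slide 1. The log2 ratio kept its direction between P3 and P7 at -2.07 with the total signal and -0.99 with normexp, neither past the threshold, and at -2.61 with the replicate block, where the adjusted p was 0.0703; the block ended no other call. The alternative restricted to miRNAs above background on all arrays gave no value, since each of the pair missed 1 array. Apart from the exceptions named here the cause of a change with the setting was not tested.

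Signs turned elsewhere in results that were not called under either setting. With no scaling the sign turned for miR-143 in Ercc1-/- minus WT at P3 in 3% O2 (0.017) and 20% O2 (0.98), in 20% minus 3% O2 in WT cells at P3 (-0.72) and P7 (-0.096), and in the difference of the oxygen change between genotypes (0.42) and passages (0.083). With no scaling it turned for miR-145 in genotype (-0.027) and oxygen (-0.12) averaged, in passage in Ercc1-/- cells in 20% O2 (-0.36), in genotype at P3 in 20% O2 (0.78), P7 in 3% O2 (-0.50) and P7 in 20% O2 (-0.24), in oxygen in WT cells at P3 (-0.46), between the extremes of the design (-0.041), and in the difference between genotypes of the passage change (-0.69) and the oxygen change (0.60), and also for miR-29a with passage (-0.61). With the mean of all miRNAs it turned for miR-143 in genotype at P3 in 20% O2 (0.63) and in oxygen in WT cells at P3 (-0.57) and P7 (-0.0041), for miR-145 in oxygen averaged (-0.14), in genotype at P3 in 20% O2 (0.43), P7 in 3% O2 (-0.097) and P7 in 20% O2 (-0.097), in oxygen in WT cells at P3 (-0.31), and in the difference between genotypes of the passage change (-0.21) and the oxygen change (0.32), and for miR-29a with passage (-0.10). With the 75th percentile it turned for miR-143 in oxygen in WT cells at P3 (-0.07). For miR-145 the difference between genotypes of the oxygen change turned with the 75th percentile (0.11), the brightest probe (0.033) and quantile normalization (0.23), and quantile normalization also turned miR-145 in oxygen averaged (-0.037), in genotype at P3 in 20% O2 (0.36) and in oxygen in WT cells at P3 (-0.19).

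With normexp the sign turned for the ratio in oxygen (0.15), and for miR-143 in genotype averaged (0.069), at P7 in 3% O2 (0.25) and at P7 in 20% O2 (0.095), in oxygen averaged (0.26) and in Ercc1-/- cells at P7 (0.33), between the extremes of the design (0.011), and in the difference of the passage change between genotypes (0.20) and of the oxygen change between passages (0.28). It turned there for miR-145 in genotype at P3 in 3% O2 (0.0026) and in oxygen in WT cells at P7 (0.039), and for miR-221 with passage (0.038). With the total signal it turned for miR-143 in genotype at P3 in 20% O2 (0.078), and for miR-145 in passage in Ercc1-/- cells in 3% O2 (-0.31), in genotype at P3 in 3% O2 (1.84) and 20% O2 (2.16), in oxygen in WT cells at P3 (-0.12) and Ercc1-/- cells at P7 (1.62), in the difference between genotypes of the passage change (-0.68) and the oxygen change (1.04), and in that of the oxygen change between passages (0.70).

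Without each array in turn the passage change of the ratio lay between -3.44 and -1.77; the call was lost without either Ercc1-/- P3 20% O2 array (adjusted p = 0.111 and 0.130) or WT P3 20% O2 replicate 2 (0.0509). The ratio ranged from -1.39 to 0.27 for genotype and from -1.18 to 0.48 for oxygen, and the correlation on slide 1 from -0.024 to 0.32. Averaged changes of miR-143 ranged from -2.17 to -0.65 for passage, from -1.18 to 0.35 for genotype and from -0.99 to 0.53 for oxygen, and those of miR-145 from -0.035 to 0.32 for genotype and from -0.055 to 0.30 for oxygen. For miR-143 the passage change ranged from -2.59 to 0.67 in WT cells in 20% O2, from -2.60 to 0.41 in Ercc1-/- cells in 3% O2 and from -5.59 to 0.51 in Ercc1-/- cells in 20% O2. In WT cells in 3% O2 it ranged from -2.00 to -0.09. Its genotype change ranged from -0.25 to 0.21 at P3 in 3% O2, from -0.41 to 0.40 at P3 in 20% O2, from -1.58 to 1.43 at P7 in 3% O2 and from -4.64 to 1.47 at P7 in 20% O2. Its oxygen change ranged from -0.30 to 0.51 in WT cells at P3, from -1.45 to 1.81 in WT cells at P7, from -0.13 to 0.37 in Ercc1-/- cells at P3 and from -4.38 to 1.73 in Ercc1-/- cells at P7. Between the extremes of the design it ranged from -5.50 to 0.61, and the differences of changes from -2.34 to 0.71 (passage, between genotypes), from -2.27 to 0.78 (oxygen, between genotypes) and from -2.21 to 0.85 (oxygen, between passages). Without Ercc1-/- P7 20% O2 replicate 1, which leaves that group its dimmest array alone and assumes that it varies like the others, miR-143 passed the threshold in 4 comparisons that include the group: passage averaged (-2.17), passage in Ercc1-/- cells in 20% O2 (-5.59), genotype at P7 in 20% O2 (-4.64) and the extremes of the design (-5.50). For miR-145 the passage change in WT cells in 20% O2 ranged from -0.069 to 1.33, the genotype change from -0.85 to 0.48 at P3 in 3% O2, from -0.90 to 0.50 at P3 in 20% O2 and from -0.039 to 1.00 at P7 in 3% O2, and the oxygen change from -0.34 to 1.06 in WT cells at P3, from -0.29 to 0.078 in WT cells at P7, from -0.17 to 0.86 in Ercc1-/- cells at P3 and from -0.64 to 0.40 in Ercc1-/- cells at P7. Its passage change ranged from 0.43 to 1.76 in WT cells in 3% O2, from 0.85 to 1.75 in Ercc1-/- cells in 20% O2 and from 1.24 to 2.28 in Ercc1-/- cells in 3% O2, its genotype change at P7 in 20% O2 from 0.19 to 0.74 and its difference between the extremes of the design from 0.79 to 2.12. The difference between genotypes ranged from 0.32 to 1.02 for its passage change and from -0.36 to 0.34 for its oxygen change, and the difference of the latter between passages from -0.81 to -0.11. The signal over background limits the low values, since P3 arrays of slide 2 read miR-145 at an unscaled 4.94 to 14.8 and one P7 array read miR-143 at 0.721.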

Other observations

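The software's total signal per miRNA disagreed with its own probe totals for miR-145 on 3 arrays of slide 2. On Ercc1-/- P3 20% O2 replicate 2 the total was 265 and the sum of the probe totals 19.6, on Ercc1-/- P3 3% O2 replicate 2 they were 220 and 13.2, and on Ercc1-/- P7 20% O2 replicate 2 they were 189 and 12.2. On the other 12 arrays where miR-145 was detected by the software the values were equal within 10%, and for miR-143 they were so on every array where it was detected. Across the arrays, 49 to 78 of the 142 to 290 mouse miRNAs detected by the software had a total that differed by over 10% from the sum of their probes. The values of the pair come from the spots, except those given for the alternative with the total signal of the software, which use these totals, the 3 discrepant arrays of miR-145 included.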
